A study of Homo sapiens with 6 samples.

Results

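The genes described here are TRMT2B and 9 other genes named as tRNA methyltransferases (TRMT2A, TRMT1, TRMT5, TRMT6, TRMT61A, TRMT10C, TRMT11, TRMT12 and TRMT13). They were taken by symbol, and every array probe annotated to 1 of the symbols was read, which gave 10 of 20046 named genes and 16 of 47321 probes. TRMT2B was chosen by its log2 intensities in the knockdown and control lines on these same arrays, and the other members by the family name they share with it, so the difference of each member between the control and the knockdown lines is given as a description, with no test. The arrays hold total RNA from 3 stable lines of HEK293T, a human embryonic kidney cell line that carries a viral large T antigen. The line shCTL expressed a control shRNA from a lentiviral vector, and the lines shlinc00598#2 and shlinc00598#3 expressed shRNAs against linc00598, a nuclear long noncoding RNA. All 3 lines therefore carried a vector and an shRNA and were grown in the same medium, and 2 Illumina HumanHT-12 v4 arrays were run for each line. Each shRNA is represented by 1 line, and whether a line was a clone or a pool is not given in the sources used here. The level of linc00598 was not analysed here, since no probe carries its name.

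Transfer RNAs are made as plain transcripts and are then modified at many bases, and methyl groups are among the commonest additions. A methyl group in the T loop or the core of the tRNA mostly steadies its fold, and one beside the anticodon keeps the reading frame during translation. Some of the enzymes serve only the cytosol and some only the mitochondria, where tRNAs are cut out of long transcripts before they are modified. TRMT2A and TRMT2B both make methyluridine in the T loop, the first in cytosolic tRNAs and the second in mitochondrial tRNAs and the small mitochondrial rRNA. TRMT61A, the catalytic subunit, and TRMT6, its partner, together make methyladenosine in the same loop. TRMT1 makes dimethylguanosine, TRMT11 makes methylguanosine in the core, TRMT5 makes methylguanosine beside the anticodon, and TRMT13 methylates a ribose of the acceptor stem. TRMT10C methylates mitochondrial tRNAs and is also a subunit of mitochondrial RNase P. TRMT12, named TYW2 in current annotation, acts in the synthesis of wybutosine and transfers an aminocarboxypropyl group rather than a methyl group.

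Promoter windows are shown for 4 of the 5 members with all 4 knockdown arrays above both control arrays, and that of TRMT2A is not shown. Each window holds 300 bases, 250 before and 50 after the RefSeq start site (GRCh38.p14), so it covers the upstream flank and the first bases of the transcript. Letters in capitals mark matches to 1 of 7 searched motifs on either strand. TRMT2B lies on the minus strand at chrX:101052062-101052361, TRMT1 on the minus strand at chr19:13116691-13116990, TRMT61A on the plus strand at chr14:103528946-103529245 and TRMT10C on the plus strand at chr3:101561618-101561917.
TRMT2B: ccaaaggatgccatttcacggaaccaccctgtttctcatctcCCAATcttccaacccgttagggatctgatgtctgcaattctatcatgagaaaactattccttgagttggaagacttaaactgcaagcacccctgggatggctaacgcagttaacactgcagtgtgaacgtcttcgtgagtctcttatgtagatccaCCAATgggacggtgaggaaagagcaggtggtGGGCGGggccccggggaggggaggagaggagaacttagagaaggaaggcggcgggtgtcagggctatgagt
TRMT1: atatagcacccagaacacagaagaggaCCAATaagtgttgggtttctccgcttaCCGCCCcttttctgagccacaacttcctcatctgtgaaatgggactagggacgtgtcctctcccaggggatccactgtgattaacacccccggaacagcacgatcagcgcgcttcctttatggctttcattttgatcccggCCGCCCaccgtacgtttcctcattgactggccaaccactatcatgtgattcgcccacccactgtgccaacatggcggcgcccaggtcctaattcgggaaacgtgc
TRMT61A: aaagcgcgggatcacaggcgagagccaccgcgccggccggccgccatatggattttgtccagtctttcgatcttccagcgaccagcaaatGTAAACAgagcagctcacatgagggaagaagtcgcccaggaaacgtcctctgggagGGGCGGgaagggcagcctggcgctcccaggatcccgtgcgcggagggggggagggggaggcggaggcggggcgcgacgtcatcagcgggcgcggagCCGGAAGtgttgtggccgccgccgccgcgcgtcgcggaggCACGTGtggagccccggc
TRMT10C: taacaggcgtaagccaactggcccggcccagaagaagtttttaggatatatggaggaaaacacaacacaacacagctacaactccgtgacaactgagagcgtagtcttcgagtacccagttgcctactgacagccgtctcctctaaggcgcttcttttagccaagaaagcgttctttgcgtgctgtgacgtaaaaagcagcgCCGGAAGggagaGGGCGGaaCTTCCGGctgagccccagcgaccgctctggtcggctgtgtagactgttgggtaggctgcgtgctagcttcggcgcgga

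The motifs were the CCAAT box (CCAAT), the GC box (GGGCGG), the E-box (CACGTG), an ETS site (CCGGAAG), an NRF1 site (GCGCA and GCGC with 1 base between them), a FOXO site (GTAAACA) and the TATA box (TATAAA). The TRMT2B window held 2 CCAAT boxes, at 208 and 52 bases before the start site, and 1 GC box at 21 bases before it. The TRMT1 window held 1 CCAAT box and 2 GC boxes. In the TRMT10C window 2 ETS sites flanked 1 GC box, and the TRMT61A window held 1 match each to the GC box, the E-box, the ETS site and the FOXO site. No printed match overlapped another, whereas in the window of TRMT6 some GC boxes and some ETS sites did. Windows of 8 of the 10 members were searched, and promoter entries for TRMT2A and TRMT12 were not used. Among these 8, the ETS site occurred in 5 windows, against 10.3% of 35116 promoters of the same length, and the GC box in 5, against 45%. The CCAAT box occurred in 3 (34.6% of all promoters), the E-box in 2 (7.26%), the NRF1 site in 1 (5.78%), the FOXO site in 1 (3.42%) and the TATA box in 0 (11.5%). These matches describe letters in the window, and none is a measured binding site.

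Between 20864 and 22134 probes per array (44.1% to 46.8%) had a detection p under 0.05, which compares a probe with the negative controls of its array, and the median intensity ranged from 105.4 to 126.2. The sample descriptions give all 6 arrays the same chip number, with a position each. Of 8 genes known from HEK293 cells, 7 were detected on all 6 arrays and PAX2 was not detected. Of 11 markers of blood, fibroblast, endothelial and liver cells, COL1A1 and ALB were detected on all 6 arrays and LUM on 4, and 0 of the 3 blood markers with a probe and 0 of the 2 endothelial markers passed the filter. Whether the replicates of a line came from separate cultures is not given in the labels, so p-values measure only the spread between these arrays, which may be technical. With 2 arrays a line, precision is low for every value.

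Of the 16 member probes, 12 were detected on all 6 arrays and 4 on none, so no probe was kept only through a line in which it was high. Each of the 10 members had a detected probe. The undetected probes were ILMN_2041971 of TRMT2B, ILMN_1688728 of TRMT2A, and ILMN_1761148 and ILMN_1717854 of TRMT11. Values below are on the log2 scale, quantile-normalized over the 6 arrays without background correction, and probes are compared only with themselves.

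TRMT2B was higher in both knockdown lines than in the control, and its level in shlinc00598#3 stood apart from all other arrays. The detected TRMT2B probe (ILMN_1779663) read 7.40 and 7.84 on the shCTL arrays of replicates 1 and 2, 8.41 and 7.98 on the shlinc00598#2 arrays, and 8.83 and 9.73 on the shlinc00598#3 arrays. Both shlinc00598#3 arrays lay above both shlinc00598#2 arrays, which lay above both control arrays, and no 2 lines overlapped. The gap was small between the control and shlinc00598#2, where the replicate 2 arrays differed by 0.14. The raw intensities of the same arrays, before normalization, were 170.3 and 221.0 in shCTL, 367.3 and 230.6 in shlinc00598#2, and 463.5 and 845.7 in shlinc00598#3. The line means were 7.62 ± 0.31 in shCTL, 8.20 ± 0.31 in shlinc00598#2 and 9.28 ± 0.64 in shlinc00598#3 (SD, n = 2 each). As the RNA came from whole cultures, more expressing cells and more RNA per cell cannot be told apart.

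Against shCTL, the log2 fold change of TRMT2B was 0.58 in shlinc00598#2 (1.49-fold) and 1.66 in shlinc00598#3 (3.17-fold), each with a standard error of 0.34. The mean of both lines was 1.12 ± 0.30 (SE), and shlinc00598#3 exceeded shlinc00598#2 by 1.09 ± 0.34 (SE). Within a replicate, the shlinc00598#2 array was 1.02 above its control in replicate 1 and 0.14 in replicate 2, whereas the shlinc00598#3 array was 1.43 and 1.89 above it. The replicates of shlinc00598#2 therefore disagreed on the size of the difference more than those of shlinc00598#3 did. Ranked from the highest log2 fold change among all 21282 detected probes, this probe was the 34th in shlinc00598#2 and the 2nd in shlinc00598#3. TRMT2B was chosen by these same values, so a high rank follows from the choice. The shlinc00598#2 value fell to 0.36 without shCTL replicate 1, and to 0.36 without shlinc00598#2 replicate 1, and the difference between the lines was 0.63 without shlinc00598#3 replicate 2. In the authors' processed table, 4 of 6 columns hold the array of another sample. By those column names the 2 highest TRMT2B values would belong to replicate 2 of shlinc00598#2 and of shlinc00598#3, with a mean log2 fold change of 1.02. The control columns then hold the arrays read here as shCTL replicate 1 and shlinc00598#2 replicate 2. Values by those names thus compare other sets of arrays.

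**Figure D1:**
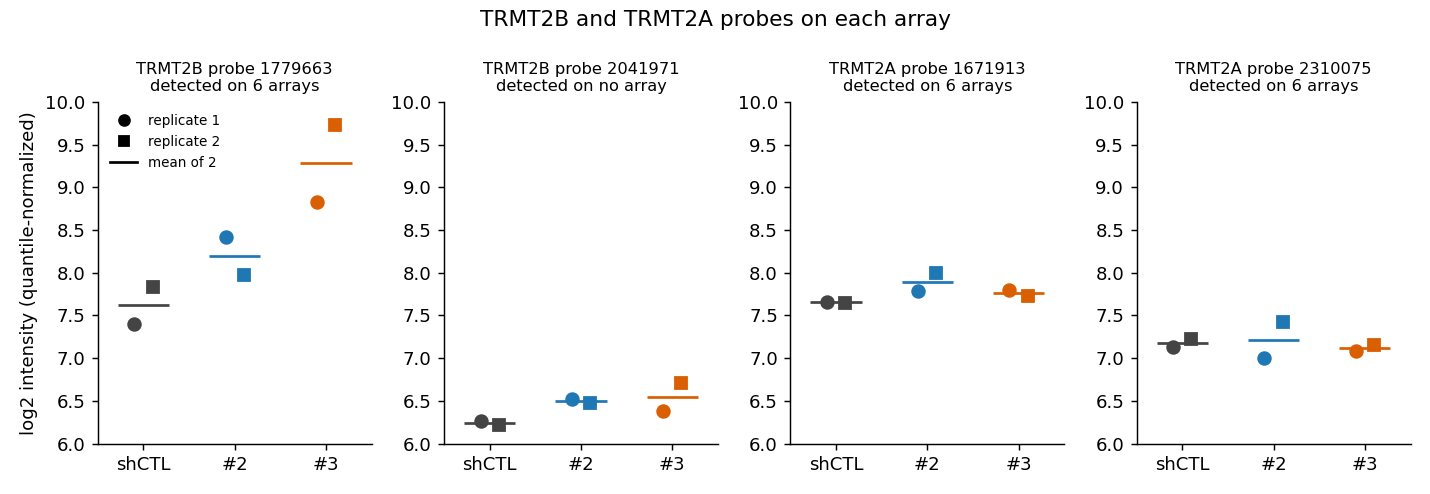
Log2 intensity after quantile normalization of 2 TRMT2B probes and 2 TRMT2A probes on each of the 6 arrays, by line, with circles for replicate 1, squares for replicate 2 and a bar at the mean of 2. Probe numbers stand without their ILMN prefix. The detected TRMT2B probe runs from 7.40 to 9.73 with no overlap between the lines, and the TRMT2A probes stay between 7.01 and 8.00.

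The other TRMT2B probe (ILMN_2041971) was not detected on any array, with detection p between 0.333 and 0.918. It read 6.27 and 6.22 in shCTL, 6.52 and 6.47 in shlinc00598#2 and 6.39 and 6.71 in shlinc00598#3. These values lie in the range of the negative controls and give no second reading of TRMT2B.

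TRMT2A, which makes the same modification in cytosolic tRNAs, differed little. Its brighter detected probe (ILMN_1671913) read 7.66 and 7.65 in shCTL, 7.78 and 8.00 in shlinc00598#2 and 7.80 and 7.73 in shlinc00598#3. All 4 knockdown arrays lay above both control arrays, by 0.09 to 0.35 within a replicate, and the mean log2 fold change of both lines was 0.18 ± 0.12 (SE). Its dimmer detected probe (ILMN_2310075) read 7.13 and 7.22, 7.01 and 7.42, and 7.08 and 7.15 in the same order, so that the lines overlapped, with a mean of -0.01 ± 0.15. The detected TRMT2A probes thus did not both place the knockdown arrays above the control. A last probe, not detected, had log2 values with line means of 6.57, 6.67 and 6.85.

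Among the enzymes of the T loop and the core, TRMT61A and TRMT1 were higher on every knockdown array than on either control array. TRMT61A read 8.52 and 8.79 in shCTL, 9.04 and 9.14 in shlinc00598#2 and 8.88 and 9.05 in shlinc00598#3, with log2 fold changes of 0.43 and 0.31 in the 2 lines (SE 0.15 each). TRMT1 read 10.28 and 10.22 in shCTL, 10.77 and 10.62 in shlinc00598#2 and 10.55 and 10.48 in shlinc00598#3, with log2 fold changes of 0.44 and 0.26 (SE 0.13 each). For both genes the lines kept the opposite order to that of TRMT2B, with shlinc00598#2 the higher knockdown line in each replicate. The mean of both lines was 0.37 ± 0.13 (SE) for TRMT61A, with 0.24 without shCTL replicate 1, and 0.35 ± 0.11 for TRMT1. By the column names of the processed table these means were 0.11 and 0.05.

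TRMT6, the partner of TRMT61A, did not show the pattern of its partner. It read 7.28 and 7.61 in shCTL, 7.46 and 7.89 in shlinc00598#2 and 7.36 and 7.51 in shlinc00598#3, so all 3 lines overlapped. Its mean log2 fold change was 0.11 ± 0.18 (SE) and turned to -0.05 without shCTL replicate 1. TRMT11 read 12.16 and 11.83 in shCTL, 11.88 and 11.70 in shlinc00598#2 and 11.95 and 11.72 in shlinc00598#3. It was the 1 member with a negative mean among the brightest detected probes (-0.18 ± 0.15, SE), and its lines overlapped, although each knockdown array was 0.11 to 0.29 below the control array of its replicate. The mean was -0.02 without shCTL replicate 1 and -0.35 without shCTL replicate 2.

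TRMT10C, the mitochondrial enzyme and RNase P subunit, read 10.17 and 10.00 in shCTL, 10.29 and 10.39 in shlinc00598#2 and 10.22 and 10.19 in shlinc00598#3. Its knockdown arrays all lay above both control arrays by narrow margins, with a mean log2 fold change of 0.19 ± 0.11 (SE). That mean was 0.10 without shCTL replicate 2, and by the column names of the processed table it turned to -0.10, as did that of TRMT2A, to -0.09.

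At the anticodon, TRMT5 had 1 bright and 1 dim detected probe. The bright probe (ILMN_2167922) read 13.44 and 13.72 in shCTL, 13.70 and 13.93 in shlinc00598#2 and 13.80 and 13.83 in shlinc00598#3. Each knockdown array was 0.11 to 0.37 above the control of its replicate, but the lines overlapped because shCTL replicate 2 was higher than shlinc00598#2 replicate 1. Its log2 fold change was 0.24 in each line (SE 0.16), whereas the dim probe (ILMN_1673872) had 0.12 in shlinc00598#2 and -0.12 in shlinc00598#3 (SE 0.17 each). The mean of both lines for the bright probe was 0.10 without shCTL replicate 1, 0.38 without shCTL replicate 2 and 0.08 by the column names of the processed table. TRMT12 had a mean of 0.03 ± 0.25 (SE) and TRMT13 of 0.01 ± 0.12, with overlapping lines for both, and the sign of each mean changed with single arrays left out, between -0.14 and 0.20 for TRMT12 and between -0.04 and 0.07 for TRMT13.

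**Figure D2:**
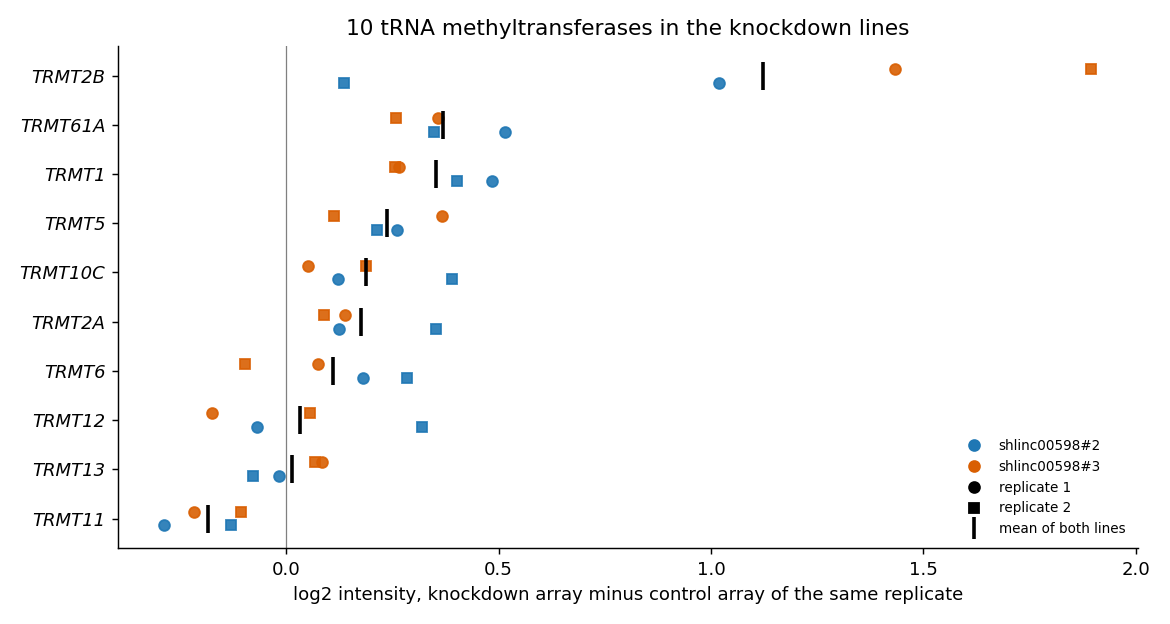
Difference in log2 intensity between each knockdown array and the control array of the same replicate for the brightest detected probe of each member, with blue for shlinc00598#2, orange for shlinc00598#3, circles for replicate 1, squares for replicate 2 and a bar at the mean of both lines. TRMT2B lies at 0.14 and 1.02 in shlinc00598#2 and at 1.43 and 1.89 in shlinc00598#3, and the points of every other member lie between -0.29 and 0.52.

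Across the 10 members, 5 (TRMT2A, TRMT2B, TRMT1, TRMT61A and TRMT10C) had all 4 knockdown arrays above both control arrays and 0 had all 4 below. Among the 12192 named genes with a detected probe, the same held for 4.87% above and 5.44% below. TRMT2B was the 1 member at least 1.4-fold higher in both lines, a criterion met by 0.0492% of the named genes (6 genes), and 0 members were at least 1.4-fold lower, against 0.353%. Without shCTL replicate 1 or without shlinc00598#2 replicate 1, TRMT2B no longer met this criterion, as its log2 fold change in shlinc00598#2 was then 0.36. The median log2 fold change over the members was 0.24 in shlinc00598#2, 0.12 in shlinc00598#3 and 0.18 in the mean of both, beside -0.00195, -0.00729 and -0.00488 over all named genes. Since the members were listed with results of these arrays known, these counts and medians are a description of the listed genes. Over all probes, limma without a replicate block called 0 of 21282 (0%) for the mean of both lines after adjustment. In that fit, which also gave the standard errors above, 393 had an unadjusted p under 0.05. With the replicate number as a block, the limma counts were 11 and 2934. With the methods' t-test the counts were 0 and 898.

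The arrays of replicate 1 and replicate 2 were compared over the 3 lines, a contrast that was not used to choose the members. Replicate 2 was higher for 18.7% of all detected probes and lower for 17.9% (limma, adjusted p under 0.05). Of the 12 detected member probes, 2 were higher in replicate 2 and 1 was lower. Neither share was above that of all detected probes.

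TRMT12 was higher in replicate 2 in each of the 3 lines. It read 10.50 and 10.79 in replicates 1 and 2 of shCTL, 10.44 and 11.11 in shlinc00598#2 and 10.33 and 10.85 in shlinc00598#3. All replicate 2 arrays lay above all replicate 1 arrays, with a difference of 0.50 ± 0.10 (SE, 3 pairs, limma adjusted p = 0.00341). TRMT6 was higher in replicate 2 by 0.32 in shCTL, 0.43 in shlinc00598#2 and 0.15 in shlinc00598#3, with an estimate of 0.30 ± 0.09 (SE, limma adjusted p = 0.0267), and its call was lost without either shlinc00598#2 array (0.24). TRMT11 fell by 0.33 in shCTL, 0.18 in shlinc00598#2 and 0.22 in shlinc00598#3, with an estimate of -0.25 ± 0.09 (SE, limma adjusted p = 0.0483), and this call was lost when any of the 6 arrays was left out (-0.28 to -0.20).

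For these 3 genes the difference between the replicates was larger in size than that between either knockdown line and the control. TRMT2B behaved otherwise, with replicate 2 above replicate 1 by 0.44 in shCTL and 0.90 in shlinc00598#3 and below it by 0.44 in shlinc00598#2. Its estimate was 0.30 ± 0.20 (SE, limma adjusted p = 0.265), and without either shlinc00598#2 array it was 0.67 and passed the threshold. The other 8 detected member probes had estimates between -0.22 and 0.19 and did not pass, with the smallest adjusted p for the dim TRMT5 probe (limma, 0.0724). Of the HEK293 genes, 4 of 7 were lower in replicate 2 and 0 higher, beside 17.9% lower and 18.7% higher among all detected probes. The part of these genes in the replicate differences of the members was not tested.

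**Figure D3:**
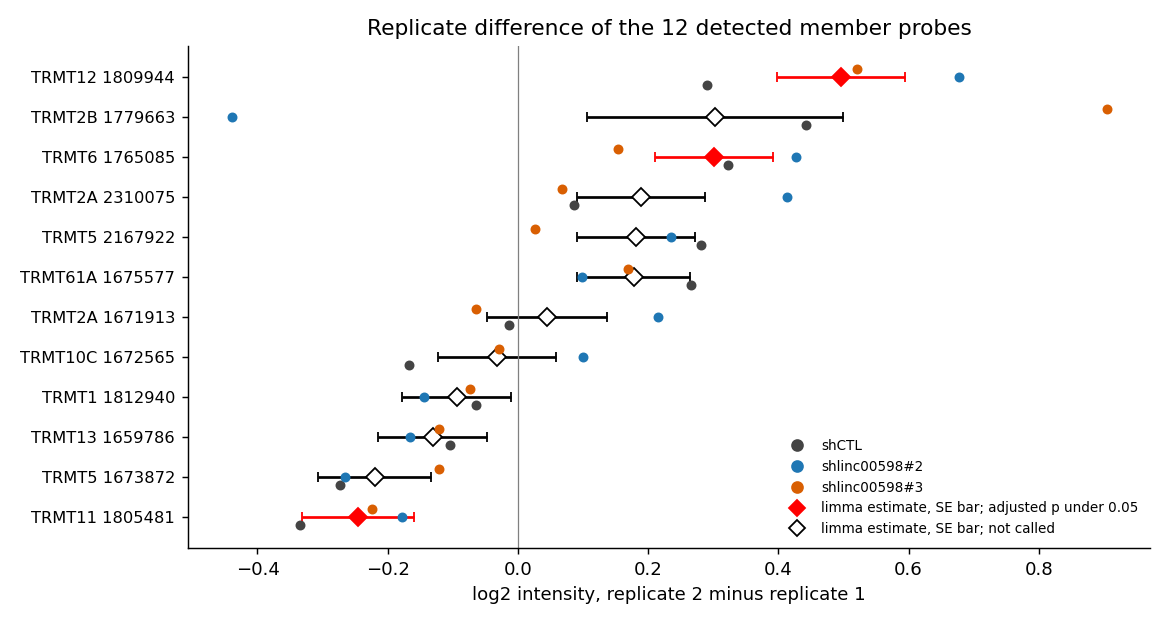
Replicate 2 minus replicate 1 in log2 intensity for the 12 detected member probes, with 1 point for each line and a diamond with a standard error bar for the limma estimate, red where the adjusted p was under 0.05. Probe numbers stand without their ILMN prefix. TRMT12 (0.50), TRMT6 (0.30) and TRMT11 (-0.25) passed, and the 3 TRMT2B points spread from -0.44 to 0.90.

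Other genes of tRNA modification were read from a list of 82, of which 79 had a probe and 77 a detected one. In the mean of both knockdown lines limma called 0 of the 77 higher and 0 lower after adjustment over all probes, and at an unadjusted p under 0.05 there was 1 higher and 0 lower. For 11 genes all 4 knockdown arrays lay above both control arrays and for 0 genes all lay below, which is 14.3% above beside the background of 4.87%. Over the 77 genes the log2 fold changes ran from -0.25 to 0.53, with a median of 0.10 beside -0.00488 for all named genes.

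The highest of them was LCMT2, which methylates the wybutosine precursor that TRMT12 acts on earlier. It read 10.15 and 10.32 in shCTL, 10.93 and 10.74 in shlinc00598#2 and 10.78 and 10.59 in shlinc00598#3. Both knockdown lines lay above the control without overlap, with a mean of 0.53 ± 0.13 (SE, limma adjusted p = 1.00, unadjusted p = 0.00729). ADAT1, a tRNA adenosine deaminase, also lay above the control on all knockdown arrays (0.44 ± 0.21). The pseudouridine synthase PUS1 had a mean of 0.33 ± 0.21 with overlapping lines, although each knockdown array was 0.27 to 0.39 above the control array of its replicate. PUS1 was also higher in replicate 2, by 0.43 (limma adjusted p = 0.00337). The lowest was ELP4, a subunit of the Elongator complex that modifies the wobble uridine, at -0.25 ± 0.16.

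By role, 5 of 25 other methyltransferases and partners had all knockdown arrays above the control, as did 0 of 12 pseudouridine synthases, 0 of 4 dihydrouridine synthases and 1 of 3 adenosine deaminases. The same held for 2 of 10 genes of Elongator and wobble uridine thiolation, with MOCS3, which activates the sulfur carrier, at 0.29 ± 0.12, and for 2 of 7 genes of threonylcarbamoyl adenosine, the kinase TP53RK (0.25 ± 0.11) and GON7 (0.15 ± 0.12). It held for 1 of 5 genes of queuosine and wybutosine, QTRT2 (0.22 ± 0.10), whose partner in queuine insertion QTRT1 had 0.19 ± 0.15. It held for 0 of 3 genes of isopentenyl and methylthio groups, 0 of 3 mitochondrial wobble enzymes and 0 of 5 further genes. None of the named genes of these roles passed the adjusted threshold in this contrast. Of the remaining named genes, the mean was 0.25 for TRMT44, 0.25 for RPUSD1, 0.16 for DUS1L and -0.19 for DUS2. It was -0.14 for ADAT2, 0.19 for CDKAL1, -0.09 for TRIT1, 0.29 for TRMU, 0.18 for GTPBP3, 0.16 for THUMPD3 and 0.12 for NAT10.

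TRMT10C works in mitochondria beside a set of tRNA processing and transcription factors, and 7 of 8 such genes were detected. All 7 means were positive, from 0.10 to 0.21, and 0 were called. The median over all named genes was -0.00488, and the share of named genes with a positive mean was not counted. HSD17B10, a subunit of mitochondrial RNase P, had a mean of 0.21 ± 0.12 (SE) and MTERF3 of 0.12 ± 0.11. These 2 of the 7 had all knockdown arrays above the control, which is 28.6% beside 4.87% of named genes. PRORP, the nuclease subunit, had 0.17 ± 0.15 and TFAM, which packages mitochondrial DNA, had 0.19 ± 0.12, with overlapping lines. Against the control array of their replicate, the knockdown arrays differed by 0.08 to 0.26 for PRORP and by -0.01 to 0.32 for TFAM.

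**Figure D4:**
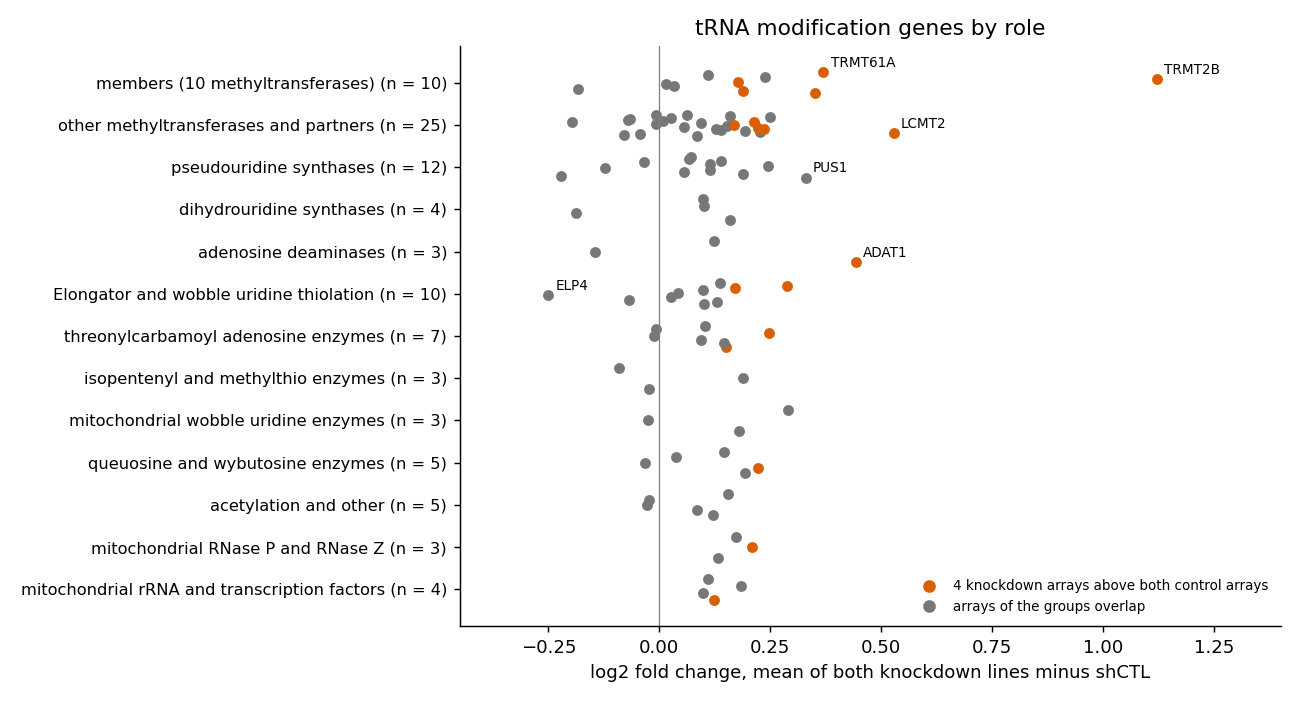
Mean log2 fold change of both knockdown lines against shCTL for the brightest detected probe of each member and of the other tRNA genes, 1 row for each role with its number of detected genes. Orange marks genes with all 4 knockdown arrays above both control arrays. TRMT2B lies at 1.12, and of the genes that are no members LCMT2 is the highest at 0.53 and ELP4 the lowest at -0.25.

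Between the replicates, 16 of the 77 other tRNA modification genes were higher and 12 lower in replicate 2 (limma adjusted p under 0.05), beside 18.7% higher and 17.9% lower among all detected probes. RPUSD1, a pseudouridine synthase, rose by 1.02 (adjusted p = 6.77e-05) and TRMU, which thiolates mitochondrial tRNAs, by 0.70 (adjusted p = 0.00169). CDKAL1, which adds a methylthio group beside the anticodon, fell by 0.58 (adjusted p = 0.000695). Of the partners of TRMT10C, 3 of 7 were higher in replicate 2 and 0 lower, against the same shares of all probes.

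The genes whose pattern over the 6 arrays was most like that of TRMT2B were sought among 7237 probes of named genes with a log2 range of at least 0.5. The 5 closest were ZNF486 (Pearson r 0.99), LRRC40 (0.98), COA8 (0.97), ARHGAP27P1 (0.97) and LOC100134868 (0.97). The measure is a description over 6 arrays that share the control line and the replicate difference. All 5 read highest on shlinc00598#3 replicate 2, as TRMT2B did, with log2 fold changes in shlinc00598#3 of 0.36, 0.50, 0.78, 0.48 and 0.44 in the order named. Each was smaller than that of TRMT2B. No tRNA methyltransferase was among these 5, but TRMT2A, TRMT5, TRMT10C, TRMT11 and TRMT13 had a log2 range under 0.5 and could not appear.

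TRMT2B lies on the X chromosome at chrX:100973366-101052111 (GRCh38.p14, minus strand). Within 1 Mb on either side the annotation holds 53 genes, 25 of them protein coding, and 17 had a detected probe. In shlinc00598#3, 0 of these 17 were at least 1.4-fold higher, and their median log2 fold change was -0.03. The highest was CENPI, a centromere protein gene 46.1 kb away, at 0.40, with -0.05 in shlinc00598#2. TNMD, which encodes tenomodulin, lies 373.5 kb away and was the 1 neighbour with all knockdown arrays below both control arrays. It read 9.97 and 10.23 in shCTL, 9.10 and 9.55 in shlinc00598#2 and 8.83 and 9.15 in shlinc00598#3. Its line order was the reverse of that of TRMT2B, with log2 fold changes of -0.78 and -1.11. The nearest detected genes, XKRX and TMEM35A, had -0.03 and 0.02 in shlinc00598#3. The remaining 13 (PCDH19, TSPAN6, SYTL4, CSTF2, TAF7L, TIMM8A, BTK, RPL36A, GLA, HNRNPH2, ARMCX6, ARMCX3 and ARMCX2) ran from -0.26 to 0.13 in shlinc00598#3.

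**Figure D5:**
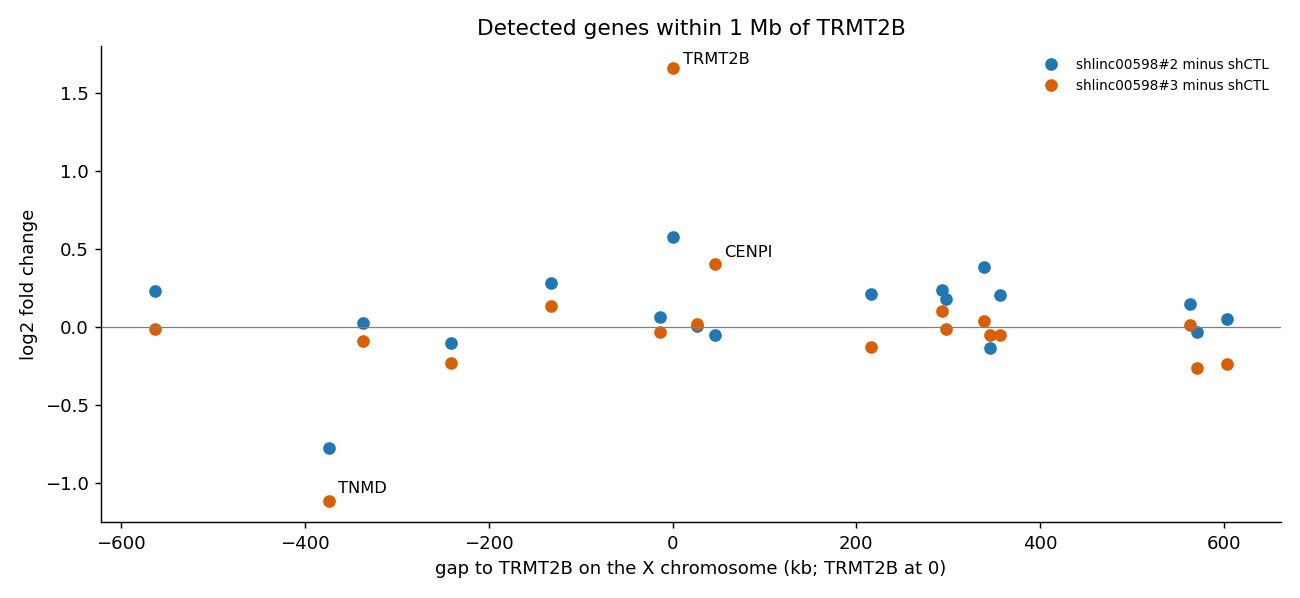
Log2 fold change against shCTL of TRMT2B and the 17 detected genes within 1 Mb of it, by the gap in kb along the X chromosome, with blue for shlinc00598#2 and orange for shlinc00598#3. TRMT2B stands at 0 kb with 0.58 and 1.66, TNMD is the lowest with -0.78 and -1.11, and the other genes in shlinc00598#3 lie between -0.26 and 0.40.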

How the data were processed

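Total RNA of 3 HEK293T lines was read on 6 arrays. The authors scanned the arrays and exported values with GenomeStudio 2011.1. Their deposited table before normalization holds linear probe intensities with the detection p-value of every probe. The deposited processed table holds log2 intensities that the authors quantile-normalized. Set beside the intensities, 4 of its 6 columns hold an array of another sample (Spearman 1 with that array, 0.925 to 0.941 with their own), so it served as an alternative by its column names. Its columns hold the arrays in the order of the lines, whereas its names run in the order of the replicates. A background subtraction is not given in the sources used here.

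Intensities were quantile-normalized and put on the log2 scale with limma 3.58.1 in R 4.3.3. The detection filter asked for p under 0.05 in both replicates of 1 line or more and kept 21282 probes. One fit without a replicate block gave the knockdown contrasts, and a fit with the line as covariate gave replicate 2 against replicate 1. P-values were adjusted by Benjamini-Hochberg across the kept probes (threshold 0.05). A gene was read by its brightest kept probe. Of all probes, 30113 carry 1 symbol, 8 several and 17200 none. The fits were tested on simulated data with independent noise. The simulated knockdown contrast held no shift between the replicates, so the test does not cover that shift. Promoters are from RefSeq (GRCh38.p14).

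Named were every member probe, the 2 genes of each role with the largest mean change and any called, the 5 genes most like TRMT2B, and its detected neighbours within 1 Mb. The members and lists were chosen with earlier results of these data known. Alternatives were background correction with neqc (offset 16), scaling to the median, the processed table, other detection filters, the replicate block, the methods' t-test and each array left out in turn.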

Additional observations from a re-analysis of the deposited data

Results flagged for a closer look

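Among 10 members, 77 other tRNA modification genes and 7 partners of TRMT10C with a detected probe, 6 genes had opposed knockdown lines. In each, both arrays of 1 knockdown line lay on the same side of the control array of their replicate. Both arrays of the other line lay on the opposite side. The share of all detected genes with this pattern was not counted. Among the members this held for TRMT13, where shlinc00598#3 exceeded shlinc00598#2 by 0.12 ± 0.14 on the log2 scale (SE). There shlinc00598#2 was below the control by 0.02 and 0.08, and shlinc00598#3 was above it by 0.08 and 0.07. No p is given for this member, because the members were listed with results of these arrays known. In the other list shlinc00598#3 minus shlinc00598#2 was -0.19 for TRMT10A, a methyltransferase of guanosine, 0.18 for WDR4, the partner of METTL1, -0.23 for ALKBH8, which methylates wobble uridines, -0.45 for OSGEP, of the threonylcarbamoyl complex, and -0.10 for THUMPD2. None of these 5 differences passed the test (limma adjusted p = 1.00 for each).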

How the results depend on the processing

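No alternative reversed a called value. With the replicate number as a block, 11 probes were called in the mean of both lines in place of 0 (2934 in place of 393 at an unadjusted p under 0.05), and 0 of the other tRNA modification genes. The block cannot change a log2 fold change, since each line has 1 array of each replicate number. For TRMT2B the standard error of the 1.12 was then 0.21. The replicates share only a number in the labels, and the deviations of same-numbered arrays correlated at 0.739, 0.759 and 0.824 across probes. TRMT2B in the mean of both lines was 1.58 after background correction and 0.90 to 1.35 with 1 array left out, and in shlinc00598#3 it was 2.25 after background correction and 1.21 to 2.12 with 1 array left out. With 1 array left out it was 0.36 to 0.80 in shlinc00598#2 and 0.63 to 1.54 for the difference between the lines. Its second probe gave no value, since it was not detected. The 7799 probes called between the replicates became 5070 to 8192 with 1 array left out. They became 0 by the column names of the processed table, but those names regroup the arrays. The replicate 1 columns then hold both arrays read here as shCTL and shlinc00598#2 replicate 1, so that contrast does not compare the same replicates. The 3 member probes called became 0 by those names and 2 with any array left out. Without either shlinc00598#2 array these were TRMT12 and TRMT2B (0.67), which had not passed with all arrays, and without any other array TRMT12 and TRMT6. TRMT6 was also lost with median scaling, and TRMT11 with median scaling, background correction and no detection filter. By those names the mean of both lines turned to -0.10 for TRMT6 and -0.21 for TRMT12. Probes at least 1.4-fold higher in both lines numbered 13, but 174 after background correction, 20 with median scaling, 8 by the processed names and 16 to 479 with 1 array left out. The 59 lower ones became 268 after background correction, 14 by the processed names and 20 to 651 with 1 array left out; the settings for each line and for these counts were chosen after seeing the data. A bright TRMT5 probe was called between the replicates with median scaling (0.33) and the dim one after background correction (-0.44). Of the other comparisons of single values, 100 knockdown folds moved by less than the spread between arrays and 8 by more. The other detection filters and the replicate block cannot change a fold. Leaving out a knockdown array cannot move the mean of both lines by as much as that spread. The 2 counts of folds are therefore no measure of how stable the folds are. Of the replicate contrasts, 111 kept their side of the threshold, 15 lost it and 4 gained it. Fits with 1 array left out take the lone array of a line to vary like the other lines. Signal close to background limits the dim probes of TRMT2A, TRMT2B, TRMT5 and TRMT6.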
